A study of Mus musculus with 9 samples.

Results

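The BCL2 family genes of mouse germinal center lymphomas were examined by RNA-seq. The 10 members were taken by symbol from the 41128 gene rows of the count table. No measured value enters that rule, but the members were chosen with earlier results of these data known. They are 4 survival genes (Bcl2, Bcl2l1, Mcl1 and Bcl2a1b), 2 effector genes (Bax and Bak1) and 4 BH3-only genes (Bcl2l11, Bbc3, Pmaip1 and Bid). Lymphomas came from 3 Bcl6 mice (IµBcl6, Smc3 wt/wt) and 6 Smc3/Bcl6 mice (IµBcl6, Smc3 wt/-), with 1 RNA library per tumor. Both genotypes carry IµBcl6, a Bcl6 allele expressed from the immunoglobulin heavy chain locus, and per the study's methods also Cγ1-Cre, which acts in B cells entering the germinal center. In Smc3/Bcl6 mice 1 Smc3 allele is deleted by that Cre, so that other cells in the sample keep both. The tissue label is mesenteric lymph node for replicate 1 of each genotype and lymph node for the other 7 tumors, and ages are not given in the sources used here.

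BCL2 proteins decide whether mitochondria release cytochrome c. Survival proteins hold the effectors Bax and Bak in check, and BH3-only proteins, induced by stress, block the survival proteins or activate the effectors. Germinal center B cells normally repress Bcl2, for which Bcl6 is a known repressor, and rely on Mcl1, whereas follicular B cells and T cells express Bcl2. BCL2 is also a well known oncogene of human germinal center lymphoma.

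Libraries held between 10156728 and 17774577 counts. The markers of B cells summed to between 2540 and 9980 CPM (counts scaled to a common library size with edgeR's TMM factors) in the 9 tumors, and the 9 T-cell markers to between 128 and 2890 CPM, so that each sample held B cells and a varying amount of T-cell RNA. Germinal center B-cell markers summed to between 234 and 750 CPM. For Smc3 itself, Bcl6 tumors had 88.1 to 126 CPM and Smc3/Bcl6 tumors had 27.9 CPM in tumor 2 and 89.7 to 111 CPM in the other 5, which lay within the Bcl6 range. Smc3/Bcl6 tumor 2 stood apart: the Spearman rho between exon length and its log2 deviation was -0.466 over genes, against -0.0303 to 0.273 in the other 8 libraries. The genotype differences of Bcl2a1b, Bax, Bak1, Bcl2l11, Bbc3 and Bid are therefore also given without it.

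Counts of Bcl2a1b are the least certain of the members. Bcl2a1b (ENSMUSG00000089929.1, chr9:89199209-89207827, plus strand, GRCm38) encodes the survival protein A1 and belongs to a cluster of recent copies with Bcl2a1a (chr9:88956900-88962419) and Bcl2a1d (chr9:88723285-88731914). Over 519 coding bases, Bcl2a1b was 97.9% identical to Bcl2a1a and 98.8% to Bcl2a1d, and 82.2% to Bcl2a1c over 387 bases. Of the windows of 50 bases in Bcl2a1b transcripts, 79.2% also occurred in another gene, against 8.51% for Bax, 0.0989% for Bcl2 and 0% for Mcl1. Of the 817 exon bases of Bcl2a1b, 401 are shared with Gm29094, a coding gene on the same strand. The first 60 coding bases from the GENCODE M21 transcripts are shown so that the closeness of the copies can be seen (capitals mark the 6 positions where any of these 3 genes differ):
Bcl2a1b: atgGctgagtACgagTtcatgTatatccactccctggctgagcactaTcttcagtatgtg
Bcl2a1a: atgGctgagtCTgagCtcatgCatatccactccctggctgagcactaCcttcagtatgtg
Bcl2a1d: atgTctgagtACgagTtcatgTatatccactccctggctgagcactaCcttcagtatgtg
These bases lie at chr9:89199360-89199419 on the plus strand, chr9:88957051-88957110 on the plus strand and chr9:88731660-88731719 on the minus strand, in coding exons. Within them Bcl2a1b differed from Bcl2a1d at only 2 positions and from Bcl2a1a at 5. All Bcl2a1b values are therefore uncertain, levels, shares and correlations included, and the sum of the 3 copies is given beside its genotype difference. That sum leaves out Gm29094, and the effect of this overlap on the counts was not tested.

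Levels of different genes were compared per length, as TMM CPM per kilobase of exon. The length was that of all GENCODE M21 exons of a gene joined, used or not, so that levels and order depend on this choice. The authors counted reads on an earlier GENCODE release. By the median of the 9 tumors the order was Mcl1 (117 CPM per kilobase), Bax (97.4), Bid (34.5), Bcl2 (21.7), Pmaip1 (18.6), Bcl2a1b (15.9), Bcl2l1 (8.02), Bbc3 (7.37), Bcl2l11 (6.11) and Bak1 (1.51). Ranges of neighbors in this order overlapped in every case. Mcl1, the labile survival protein on which germinal center B cells depend, ranged from 79 to 148 CPM per kilobase and was the highest member in 7 of 9 tumors. Bax was highest in the other 2, Bcl6 tumor 2 and Smc3/Bcl6 tumor 2. Bak1, the second effector, was the lowest member in 8 of 9 tumors, at 0.525 to 3.87 CPM per kilobase.

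**Figure D1:**
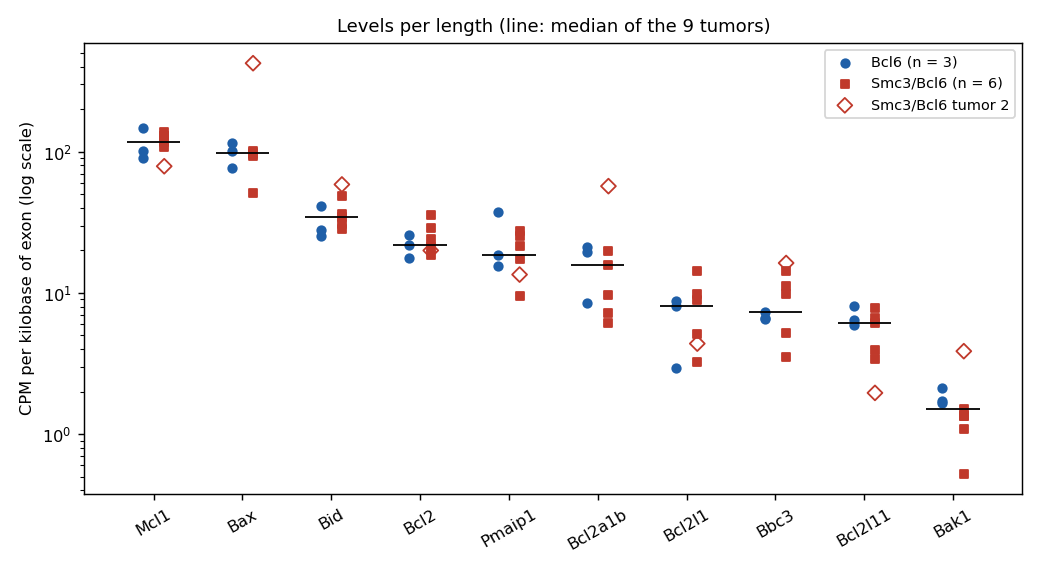
Level of each member per length (vertical log axis, TMM CPM per kilobase of exon) in 3 Bcl6 tumors (circles) and 6 Smc3/Bcl6 tumors (squares, with tumor 2 as an open diamond); the line is the median of 9 tumors. Mcl1 and Bax have the highest medians (117 and 97.4) and Bak1 the lowest (1.51), and tumor 2 lies at 424 for Bax.

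Within the survival genes among the members, Mcl1 made up most of the summed level per kilobase in 8 tumors. Its share was 81.7%, 68.3% and 62.6% in Bcl6 tumors 1 to 3, and 49.2% to 76.3% in the Smc3/Bcl6 tumors, with the lowest share in tumor 2. The Bcl2 share was 10% to 21.7% over the 9 tumors. Per kilobase, Mcl1 exceeded Bcl2 by 3.25 to 7.41 times, and it was the higher of the pair in all 9 tumors. Without division by length the gap was smaller, at 399 CPM for Mcl1 against 329 CPM for Bcl2 in Smc3/Bcl6 tumor 1. Bcl2l1, which encodes Bcl-xL, never exceeded 9.01% of the sum. Bcl2a1b took between 3.60% and 35.6%, the latter in Smc3/Bcl6 tumor 2, whose counts of short genes were high. The sum leaves out the copies Bcl2a1a and Bcl2a1d. In that tumor Bcl2a1d had 72.4 CPM, against 46.7 CPM for Bcl2a1b. With these copies each share of Mcl1 would be lower, so that the count of 8 tumors holds only for the sum used here.

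To compare genotypes, 14057 genes were tested after edgeR's low-count filter, which all 10 members passed. By the thresholds of the study (unadjusted p under 0.1, absolute log2 fold change over 0.56), 0 of 10 members differed, where 2.15% of all genes tested passed. The groups of tumors overlapped for all 10 members, and 0.484% of all genes had groups that did not overlap. At an adjusted p under 0.05, edgeR's quasi-likelihood test called 0 members and 0 of all genes (0%), DESeq2 and limma also called 0, and 79 genes had an unadjusted p under 0.05 with edgeR. The lowest unadjusted p of a member was 0.269 with edgeR, no member was under 0.05 with DESeq2, and 1, Bcl2a1b, was with limma, where 1171 of all genes were. Log2 fold changes of the members (Smc3/Bcl6 minus Bcl6) ran from -0.45 to 0.55 with a median of 0.20, and 7 of 10 were positive. Over all genes tested the median was 0.06, and 57.4% were positive. Each p sets the genotype difference against the spread between these tumors. The 79 of 14057 genes under 0.05 with edgeR are fewer than that level would give for independent genes without any difference. The reason was not tested. With 3 Bcl6 tumors the 95% intervals were wide, so these data do not show that the members were equal between genotypes.

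**Figure D2:**
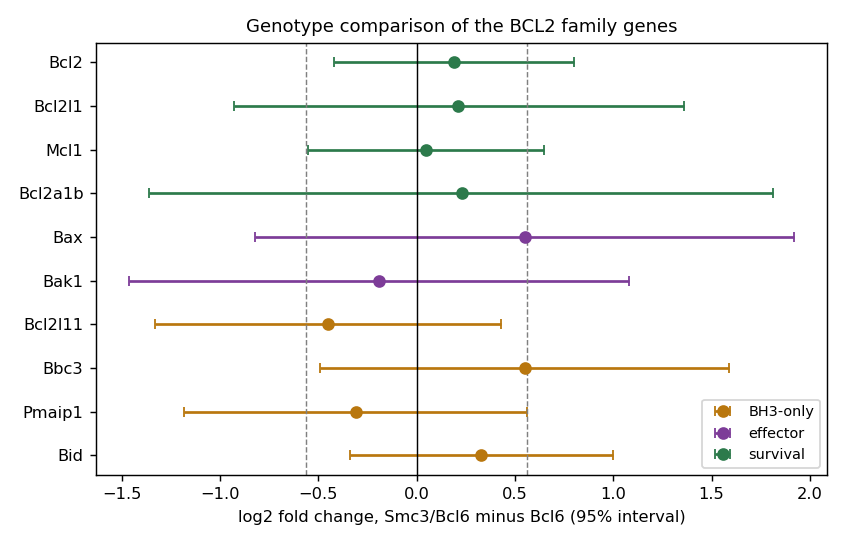
Log2 fold change of each member (horizontal axis, Smc3/Bcl6 minus Bcl6, 3 against 6 tumors) with its 95% interval from edgeR, colored by role. Dashed lines mark the fold threshold of 0.56 on either side of 0, and all 10 intervals include 0.

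Among the survival genes, Bcl2 (ENSMUSG00000057329.7, chr1:106538178-106714274, minus strand) was at 199 CPM in Bcl6 tumor 1, 161 CPM in tumor 2 and 237 CPM in tumor 3. Smc3/Bcl6 tumors had a lowest value of 171 CPM, a median of 208 CPM and a highest value of 329 CPM in tumor 1. Bcl2 was thus present in every lymphoma, and the groups overlapped, with a range of 2.04-fold over the 9 tumors. Between genotypes its log2 fold change came to 0.19 (95% interval -0.42 to 0.80, adjusted p = 1, edgeR). It was 0.02 without Bcl6 tumor 2, 0.05 without Smc3/Bcl6 tumor 1 and 0.33 without Bcl6 tumor 3. Reads from 558 of its 9157 exon bases overlap an antisense gene, and the sources used here do not state whether counting used strand.

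Mcl1 (chr3:95658788-95663176, plus strand) had 506, 346 and 309 CPM in Bcl6 tumors and 270, 421 and 474 CPM as the lowest, median and highest of the Smc3/Bcl6 tumors. It was the steadiest member, with a range of 1.87-fold, and its log2 fold change was 0.05 (95% interval -0.55 to 0.65, adjusted p = 1, edgeR). Bcl2l1 (chr2:152780668-152831728, minus strand) had 13.4, 36.8 and 40.5 CPM in Bcl6 tumors and 14.9, 32.3 and 65.2 CPM as the lowest, median and highest Smc3/Bcl6 values. Replicate 1 was lowest within each genotype, and the log2 fold change was 0.21 (95% interval -0.93 to 1.36, adjusted p = 1, edgeR). A fit blocked on the replicate number, over replicates 1 to 3 of each genotype only, gave -0.26 (standard error 0.40). It left out Smc3/Bcl6 tumors 4, 5 and 6, so that blocking and the loss of these tumors cannot be told apart.

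Bcl2a1b had 6.97, 17.4 and 15.9 CPM in Bcl6 tumors, and in Smc3/Bcl6 tumors ran from 5.00 through a median of 10.4 to 46.7 CPM in tumor 2. Its log2 fold change of 0.23 (95% interval -1.36 to 1.81, adjusted p = 1, edgeR) turned to -0.48 without that tumor. Limma with a quality weight per tumor gave -0.90 (unadjusted p = 0.0491, adjusted p = 0.563). Bcl2a1a, Bcl2a1b and Bcl2a1d summed to 30, 51.2 and 47.4 CPM in Bcl6 tumors and to between 12 and 132 CPM in Smc3/Bcl6 tumors, and the genotypes differed by 0.06 on the log2 scale (95% interval -1.47 to 1.59, adjusted p = 1, edgeR). The sum was chosen after the sequences had been compared.

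**Figure D3:**
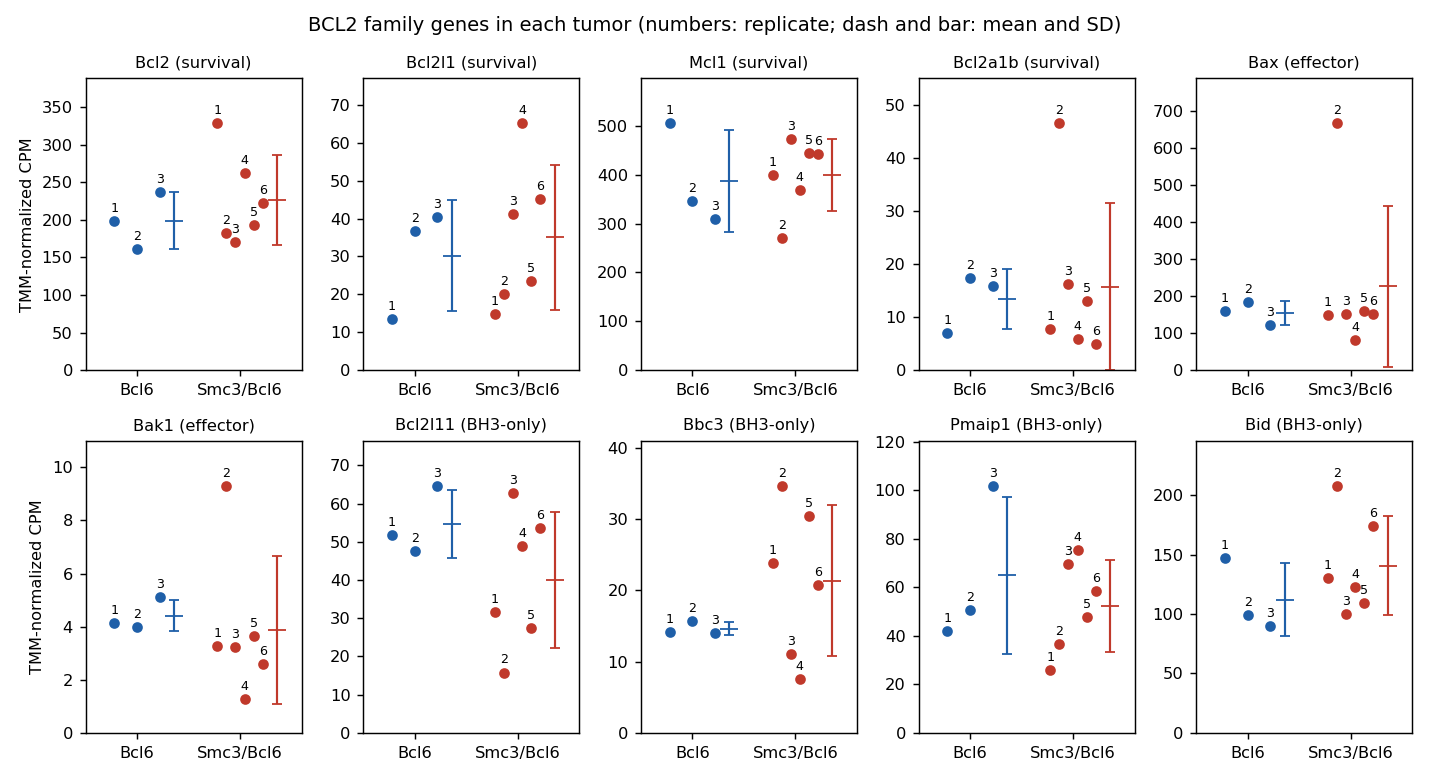
TMM-normalized CPM (vertical axis from 0) of each member in 3 Bcl6 tumors (blue) and 6 Smc3/Bcl6 tumors (red), with the replicate number at each point and the mean and SD beside them. Points of the 2 genotypes overlap in all 10 panels, and Smc3/Bcl6 tumor 2 is highest for Bcl2a1b, Bax, Bak1, Bbc3 and Bid.

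The effectors form the pore in the outer mitochondrial membrane. Bax (ENSMUSG00000003873.10, chr7:45461697-45466898, minus strand) had 160, 183 and 121 CPM in Bcl6 tumors. In Smc3/Bcl6 tumors it had a lowest value of 80.7 CPM in tumor 4, a median of 153 CPM and a highest value of 668 CPM in tumor 2. Tumor 2 lay above and tumor 4 below all Bcl6 tumors, and the other 4 lay within their range. Its log2 fold change was 0.55 (95% interval -0.82 to 1.92, adjusted p = 1, edgeR) and became -0.14 (standard error 0.24) without tumor 2. Of its 1576 exon bases, 192 are shared with Gm45808, a coding gene on the same strand. In that tumor Bax deviated from the other 8 by 2.24 on the log2 scale, against a median of 1.06 over the 200 tested genes closest in exon length, and the part of length in the Bax value was not tested further.

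Bak1 (chr17:27019810-27029009, minus strand) was scarce, with 476 counts in all 9 libraries. It had 4.15, 4.00 and 5.10 CPM in Bcl6 tumors and 1.26, 3.25 and 9.31 CPM as the lowest, median and highest Smc3/Bcl6 values, again with tumor 2 highest. Its log2 fold change was -0.19 (95% interval -1.46 to 1.08, adjusted p = 1, edgeR), and -0.65 (standard error 0.40, adjusted p = 0.985, edgeR) without tumor 2. Leaving out any other single tumor gave -0.32 to -0.05, the latter without Smc3/Bcl6 tumor 4. Of its 2407 exon bases, 614 are shared with Ggnbp1 on the other strand.

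BH3-only genes are the stress sensors of the family. Bcl2l11 (ENSMUSG00000027381.11, chr2:128126038-128162547, plus strand) encodes Bim, which removes activated and autoreactive lymphocytes. It had 51.9, 47.5 and 64.7 CPM in Bcl6 tumors and ran from 15.8 CPM in tumor 2 through a median of 40.3 to 62.8 CPM in Smc3/Bcl6 tumors. Tumors 1, 2 and 5 lay below all Bcl6 tumors, and the other 3 overlapped them. The log2 fold change was -0.45 (95% interval -1.33 to 0.43, adjusted p = 1, edgeR), -0.28 without tumor 2 and -0.81 (standard error 0.43, adjusted p = 0.983, edgeR) with the replicate block. The block fit held replicates 1 to 3 of each genotype only. The log2 fold change of Bcl2l11 was negative in every alternative fit run.

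Bcl2 and Bcl2l11 are both long, with 9.16 and 8.03 kilobases of exon, so that their ratio within a library is less exposed to the length effect in tumor 2. Per kilobase, Bcl2 exceeded Bcl2l11 by 3.37, 2.98 and 3.21 times in Bcl6 tumors 1 to 3. In Smc3/Bcl6 tumors the ratio was 9.11 in tumor 1, 10.2 in tumor 2, 2.39 in tumor 3, 4.70 in tumor 4, 6.16 in tumor 5 and 3.64 in tumor 6. It was above the Bcl6 tumors in 5 of 6 Smc3/Bcl6 tumors and below them in the sixth, so that the groups overlapped. The ratio was computed with the values in view and is given without a test.

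Bbc3 (chr7:16308393-16318205, plus strand) and Pmaip1 (chr18:66458533-66465565, plus strand) encode Puma and Noxa, both textbook targets of p53, and Noxa binds Mcl1 and A1. Bbc3 had 14.2, 15.7 and 14.0 CPM in Bcl6 tumors. Smc3/Bcl6 tumors spread around these, from 7.52 CPM in tumor 4 through a median of 22.3 to 34.7 CPM in tumor 2, and 4 of the 6 exceeded all Bcl6 tumors. Its log2 fold change was 0.55 (95% interval -0.49 to 1.59, adjusted p = 1, edgeR), 0.37 without tumor 2, and 0.70 with an unadjusted p of 0.0863 and an adjusted p of 1 (edgeR) without tumor 4.

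Pmaip1 had 42.0, 50.8 and 102 CPM in Bcl6 tumors and 25.9, 53.1 and 75.4 CPM as the lowest, median and highest Smc3/Bcl6 values. Bcl6 tumor 3 was the highest of the 9, and without it the log2 fold change of -0.31 (95% interval -1.18 to 0.56, adjusted p = 1, edgeR) became 0.17. With the replicate block (replicates 1 to 3 of each genotype only) and an offset for gene length it was -0.70 (unadjusted p = 0.0466, adjusted p = 1, edgeR). The 2 p53 targets did not follow each other across tumors, with a Pearson r of -0.64 over 9 tumors, given as a description.

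Bid (chr6:120891930-120916853, minus strand), which links death receptors to mitochondria once cleaved by caspase 8, had 147, 99.3 and 89.6 CPM in Bcl6 tumors. Its Smc3/Bcl6 values ran from 100 CPM through a median of 126 to 208 CPM, and all 6 exceeded Bcl6 tumors 2 and 3. The log2 fold change was 0.33 (95% interval -0.34 to 1.00, adjusted p = 1, edgeR). It was 0.20 without Smc3/Bcl6 tumor 2, 0.19 without Bcl6 tumor 3 and 0.50 without Bcl6 tumor 1. Of the exon bases of Bid, 628 of 3550 overlap Bcl2l13 on the other strand.

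The rest of the pathway was read from 3 lists. Of 16 other BCL2 family genes, 14 were tested and 0 passed the thresholds of the study. Their log2 fold changes had a median of 0.28, with 78.6% positive. Bcl2l14, Bcl2l15 and Fas are named here after their values were seen. Bcl2l15 had the largest log2 fold change of the 14 (1.23, unadjusted p = 0.107, edgeR). Its groups overlapped, at 1.23 to 4.63 CPM in Bcl6 and 1.88 to 16.4 CPM in Smc3/Bcl6 tumors, highest in tumor 5. Bcl2l14 averaged 9.78 ± 4.78 CPM (SD, n = 3) without and 21.5 ± 17.8 CPM (SD, n = 6) with the Smc3 deletion, where tumor 2 had 54.2 CPM and the other 5 between 2.86 and 27.1 CPM (unadjusted p = 0.166, adjusted p = 1, edgeR). Of the 12 caspases and their regulators, all were tested and 0 passed, with a median of 0.07 and a range from -0.35 to 0.28. Of the 6 death receptor genes, 0 passed and the median was -0.11. Fas, the receptor that marks germinal center B cells, averaged 36.9 ± 15.3 CPM (SD, n = 3) without and 30.4 ± 23.5 CPM (SD, n = 6) with the deletion, where tumor 2 had 75 CPM and the other 5 between 11.8 and 37.1 CPM.

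Bcl2 was then related to T-cell content, read from Cd3e, a subunit of the T-cell receptor complex. Cd3e reached 21.5, 454 and 322 CPM in the 3 Bcl6 tumors, and 5.13, 205, 384, 18.9, 142 and 22.8 CPM in Smc3/Bcl6 tumors 1 to 6, a range of 88.4-fold. On the log2 scale the values left a gap of 2.63 between the 4 tumors with the least Cd3e (Smc3/Bcl6 tumors 1, 4 and 6 and Bcl6 tumor 1) and the other 5, too few on either side for a correlation of its own. Over the 9 tumors Pearson's r of log2 CPM was -0.788 (exact two-sided permutation p = 0.00995, 0.0199 after Benjamini-Hochberg adjustment over 2 relations) and Spearman's rho was -0.817 (exact permutation p = 0.0108, adjusted 0.0216). In the 6 Smc3/Bcl6 tumors alone, r was -0.968 and the order was fully inverse (rho -1, exact permutation p = 0.00278, the smallest that 6 tumors allow).

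This relation was not stable to the choice of tumors and scale. Without Smc3/Bcl6 tumors 1 and 4, the farthest from the median of Cd3e, r was -0.466 (exact permutation p = 0.284) and rho -0.607 (exact permutation p = 0.167). Leaving out these extremes narrows the range of Cd3e, so that this cannot show how far the relation rests on them. Without tumor 1 alone r was -0.632 (exact permutation p = 0.0976), and without tumor 4 alone -0.762 (exact permutation p = 0.0191). Leaving out any other single tumor of either genotype gave r from -0.914 to -0.74. Within the 7 tumors labelled lymph node r was -0.728 (exact permutation p = 0.0736). There rho was -0.786 (exact permutation p = 0.048, 0.096 after Benjamini-Hochberg adjustment over 2 relations). After a correction of each tumor for gene length, r was -0.301 (exact permutation p = 0.425). The correction moved Bcl2 in Smc3/Bcl6 tumor 2 by 0.90 on the log2 scale and in the other tumors by between -0.24 and -0.01. Without tumor 2, r was -0.775 (exact permutation p = 0.0226) on uncorrected and -0.678 (exact permutation p = 0.0621) on corrected values. Over the 6 Smc3/Bcl6 tumors the corrected r was -0.29 (exact permutation p = 0.538). In bulk RNA, fewer cells of a type and less RNA per cell cannot be told apart.

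Sums of other marker lists also varied between tumors. The 6 B-cell markers summed to 8040, 4190 and 2540 CPM in Bcl6 tumors and to between 4450 and 9980 CPM in Smc3/Bcl6 tumors, highest in tumor 4. The 6 macrophage markers summed to 307, 1030 and 2400 CPM in Bcl6 tumors and ran from 149 CPM in tumor 1 to 3000 CPM in tumor 2 of Smc3/Bcl6. Plasma-cell markers were highest in Smc3/Bcl6 tumors 1 and 4, at 3750 and 3370 CPM against 688 to 2180 CPM elsewhere, and these tumors also had the most Bcl2. Erythroid markers ranged from 31.1 to 9400 CPM, neutrophil markers from 8.61 to 1430 CPM and stromal markers from 19 to 330 CPM. All markers of these lists were detected, and their part in the Bcl2 values was not tested. Of the members, Bcl2a1b had the highest positive correlation with Cd3e (r = 0.75 over 9 tumors, rho = 0.75), and the sum of its 3 copies had r = 0.69. The values for Bcl2l1 (r = 0.29), Mcl1 (-0.36), Bcl2l11 (0.04), Bbc3 (0.02), Pmaip1 (0.46), Bid (-0.41), Bax (0.32) and Bak1 (0.49) lay nearer to 0. These are descriptions over 9 tumors that share the length effect of tumor 2.

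**Figure D4:**
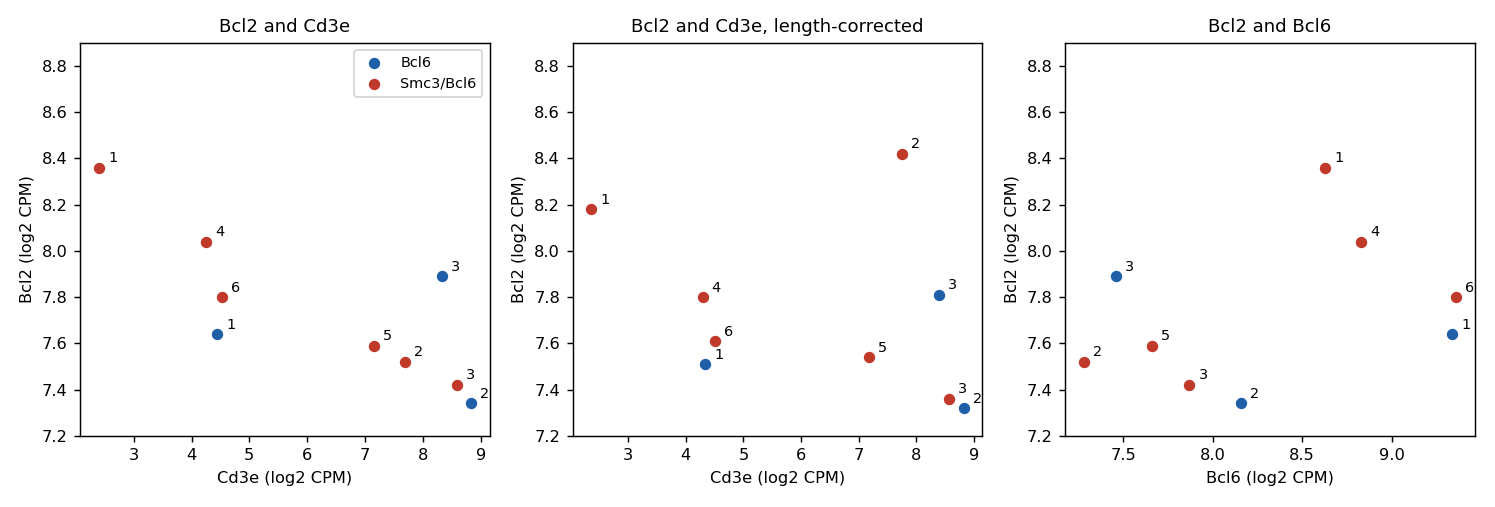
Bcl2 (vertical axes, log2 CPM) in each tumor against Cd3e (left), against Cd3e after the correction for gene length (middle) and against Bcl6 (right), with replicate numbers, Bcl6 tumors in blue and Smc3/Bcl6 tumors in red. Pearson's r is -0.788, -0.301 and 0.345, and the correction lifts Smc3/Bcl6 tumor 2 from 7.52 to 8.42.

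No relation of Bcl2 to Bcl6 was detectable with 9 tumors. Bcl6, the transcriptional repressor that drives these lymphomas, had 647, 286 and 175 CPM in Bcl6 tumors and between 155 and 659 CPM, with a median of 315 CPM, in Smc3/Bcl6 tumors. Whether counts on the gene include transcripts of the IµBcl6 allele was not examined. Pearson's r of Bcl2 with Bcl6 was 0.345 (exact two-sided permutation p = 0.365, adjusted 0.365) and Spearman's rho was 0.35 (exact permutation p = 0.359). Without the 2 tumors farthest from the median of Bcl6 it was 0.568 (exact permutation p = 0.185), and after the correction for gene length -0.111 (exact permutation p = 0.775). Bcl2a1b had the lowest correlation of the members with Bcl6 (r = -0.88, rho = -0.83) and Mcl1 the highest (r = 0.61, rho = 0.53), given as descriptions. In Smc3/Bcl6 tumor 2 Bcl6 was the lowest of the 9 tumors (155 CPM) and Bcl2a1b the highest (46.7 CPM). These 2 correlations were not corrected for the length effect of that tumor. A core Bcl6 site, TTCCTNGAA on either strand, was found in 0 of 14 promoter windows (250 bases before to 50 after the start, RefSeq, GRCm38.p6) of 9 members. Pmaip1, on chromosome 18, was left out of this search. Of 32851 windows of all genes, which were not limited by chromosome, 1.59% held the site. These letters are then not in the 14 member windows, and nothing follows for binding elsewhere.

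The 5 genes whose log2 CPM followed Bcl2 most closely over the 9 tumors were Zfp523 (Pearson r = 0.956), H2-Eb2 (0.932), Fancc (0.920), Napb (0.912) and Lmbrd2 (0.911). H2-Eb2, an MHC class II beta chain gene, had 33.5, 28.1 and 37.2 CPM in Bcl6 tumors and 23.7 to 97.3 CPM in Smc3/Bcl6 tumors, highest in tumor 1 as for Bcl2. Fancc, a member of the Fanconi anemia repair pathway, ran from 20.2 to 40.7 CPM over all tumors. Napb and Lmbrd2 were counted 167 and 220 times in all libraries together. They were picked as the highest of 14057 correlations, and no test was made of them.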

How the data were processed

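RNA from 9 lymphomas was sequenced on an Illumina platform (TruSeq kit), and the authors aligned reads to mm10 with STAR and counted them per gene with featureCounts. The deposited values are raw counts for 41128 gene rows, and 0 sample columns were left without a sample. The submitters' processing notes name R 4.0.2 and DESeq2 1.28.1. The strand setting of the counting is not given in the sources used here. Here, edgeR 4.0.16 (R 4.3.3) was run on the counts with TMM factors, its filter on low counts and its quasi-likelihood test, with Benjamini-Hochberg adjustment over 14057 genes. DESeq2 1.42.0 and limma 3.58.1 were alternatives. The edgeR fit was tested on simulated counts, and the permutation on values in perfect order. The DESeq2 and limma fits and the length correction were not tested in this way. For log2 CPM the prior count was 2. The length correction removed a lowess trend (span 0.3) of each tumor's deviation on exon length (GENCODE M21, which held 97.9% of gene IDs). Relations used exact permutation over all pairings. Replicate numbers come from the labels, which do not say what they mark. Fits blocked on these numbers used replicates 1 to 3 of each genotype only. Deviations of same-numbered tumors correlated at 0.443, 0.113 and 0.155 for replicates 1 to 3. Totals of 10156728 to 17774577 counts limit precision for scarce genes such as Bak1. All members were named, other lists by their counts, and the 5 genes closest to Bcl2 by r. The members and lists were chosen with earlier results of these data known.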

Additional observations from a re-analysis of the deposited data

Results flagged for a closer look

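Bax in the Smc3/Bcl6 group was set apart by 1 tumor. Tumor 2 had 9.38 log2 CPM, and its gap to the nearest other tumor was 0.678 of the range of the group, above Dixon's 95% critical value for 6 tumors. Of 12 measures examined (the members, Bcl6 and Cd3e), this 1 passed. Chance gives about 1 in 20 for each measure, and at that rate 1 among 12 is not rare. The length effect of the same tumor is given beside Bax in the report.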

How the results depend on the processing

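No member passed the adjusted threshold in any of the alternatives run, and the log2 fold changes of Bcl2, Bcl2l11, Bbc3 and Bid kept their direction in all of them. Bcl2l1 reversed to -0.26 with the replicate block and -0.16 with the block and length offset (-0.21 to 0.48 leaving out 1 tumor), and Mcl1 to -0.06 and -0.09 (-0.09 to 0.23). Bcl2a1b reversed to -0.90 with limma and -0.10 with the length offset (-0.48 to 0.41), Bax to -0.10 with limma (-0.14 to 0.69) and Bak1 to 0.04 with the block (-0.65 to -0.05). Pmaip1 ran from -0.62 to 0.17 leaving out 1 tumor. Members past the thresholds of the study numbered 2 with limma (Bcl2a1b and Bak1, both lower), 1 with the block and length offset (Pmaip1) and 0 to 1 leaving out 1 tumor (Bbc3, without Smc3/Bcl6 tumor 4). Both block fits left out Smc3/Bcl6 tumors 4, 5 and 6, so that their shifts cannot be credited to blocking alone. The block without the offset called 0 members and so changed no member's call. Over all genes 11.7% passed with limma, 2.46% with the block and length offset and 2.46% without Smc3/Bcl6 tumor 4. All genes past the thresholds numbered 302 in the main edgeR fit (180 higher, 122 lower). The paper instead reported more genes lower than higher at these thresholds. Alternatives gave 1388 without the filter, 1644 with limma (642 higher, 1002 lower) and 443 with DESeq2 (342 higher, 101 lower). With p under 0.05 in the main fit the number was 77. Leaving out 1 tumor gave 159 to 624 (159 without Smc3/Bcl6 tumor 6, 624 without tumor 3, 533 without tumor 2). With the block 45 were higher and 254 lower, and with the tissue label as covariate 130 and 192. The correlation of Bcl2 with Cd3e was -0.614 without normalization factors, -0.301 with the length correction, -0.466 without the 2 farthest tumors, and -0.914 to -0.632 leaving out 1 tumor. With DESeq2 size factors it was -0.711, and with the mean of the T-cell list in place of Cd3e -0.773. Among alternatives chosen after seeing the data the correlation of Bcl2 with Cd3e was -0.728 in the 7 lymph node tumors. With the length correction it was -0.678 without Smc3/Bcl6 tumor 2 and -0.29 in the 6 Smc3/Bcl6 tumors. The correlation with Bcl6 reversed to -0.111 with the length correction and to -0.003 in the 6 Smc3/Bcl6 tumors with it. The causes were not tested.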
